A study of Mus musculus with 11 samples.

Results

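Adipocyte and lipid droplet genes of the newborn mouse ovary are described here across wild type, Sohlh1 knockout and Sohlh2 knockout. The set held 10 genes (Adipoq, Lep, Plin1, Plin4, Cidea, Cidec, Lipe, Fabp4, Aoc3 and Pparg), taken as every array probe whose annotated gene symbol was one of these names. They were 10 of 19057 genes with a probe, and they had 16 probes between them, 12 of which rose above background on enough arrays to be kept. All 10 genes had at least 1 kept probe and were tested.

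A fat cell stores triglyceride in a lipid droplet coated by perilipins and enlarged by the CIDE proteins, and releases fatty acids from it through a chain of lipases. The nuclear receptor PPARG drives the differentiation of fat cells and the transcription of many of their genes, and mature fat cells secrete the hormones adiponectin and leptin. Fat pads lie close to the ovary and its duct in the mouse, while oocytes, granulosa cells and steroid-producing cells hold lipid droplets of their own.

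Illumina MouseWG-6 v2 bead arrays were read for total RNA of newborn ovaries on a C57BL/6/129S6/SvEv background, with 1 array a sample. There were 4 wild-type arrays, 4 arrays of ovaries lacking Sohlh1 (Sohlh1 KO) and 3 of ovaries lacking Sohlh2 (Sohlh2 KO, replicates 2 to 4). The titles of wild type 2 and 3 carry a letter b whose meaning the labels do not give. Both were therefore left out together as an alternative. Sohlh1 and Sohlh2 encode germ cell transcription factors of the basic helix-loop-helix family, and the labels describe neither the alleles nor a treatment. Whether replicates came from separate animals, litters or pools is not stated in the labels, so the p-values measure only the spread between these samples.

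Levels below are log2 intensities after background correction and quantile normalization, a scale on which the background level of an array lay between 4.92 and 5.24. A gene was called changed at a Benjamini-Hochberg adjusted p under 0.05 over all 13350 tested genes, from a limma fit to all 11 arrays. Between 45.2% and 52.6% of probes were above background on an array. Wild type and Sohlh1 KO 1 and 2 lay on 1 chip, and Sohlh1 KO 3 and 4 lay with all of Sohlh2 KO on the other, so Sohlh2 KO shared no chip with wild type. The Sohlh1 probe averaged 11.26 (SD 0.15, n = 4) in wild type, fell to 8.69 (SD 0.29, n = 4) with Sohlh1 missing and to 8.70 (SD 0.11, n = 3) with Sohlh2 missing, and so does not tell one knockout label from the other. The faint Sohlh2 probe averaged 5.01, 5.71 and 4.70 in that order and was above background on 3 of 4, 4 of 4 and 0 of 3 arrays; its difference between the knockouts did not pass (adjusted p = 0.0811). Whether either probe lies in the deleted stretch is not given in the sources used here. As a check of the tissue label, each of the 8 tested ovary and germ cell markers was above background on at least 1 array of every group, among them the oocyte genes Gdf9 (mean 13.43 in wild type) and Zp3 (mean 12.44 in wild type).

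The comparisons asked how transcripts of fat cells and lipid droplets differ when either factor is missing. In Sohlh1 KO 8 of the 10 genes fell and 0 rose, where 32.7% of all tested genes were called, 16.4% lower and 16.3% higher. In Sohlh2 KO 7 fell and 0 rose, where 25.5% of all tested genes were called, 13% lower and 12.5% higher. Every Sohlh1 KO array lay below every wild-type array for 7 of the 10 genes and above for 0 (16.1% and 15% of all tested genes). Every Sohlh2 KO array lay below for 9 and above for 0 (19.4% and 24% of all tested genes). Adipoq, Lep, Plin1, Plin4, Cidea, Cidec and Fabp4 were above background on fewer than 3 knockout arrays. They were kept only through their wild-type arrays, so for them the filter itself favours a fall over a rise. The genes and the lists below were also chosen with earlier results of these data known. Their counts beside the shares of all tested genes are therefore not an independent test. Adipoq, Plin4, Cidea, Pparg and Cidec fell at least 2-fold in both knockouts (5 of 10 genes, beside 6.83% and 6.15% of all tested genes), and Lep and Aoc3 fell by less. Lipe passed in Sohlh1 KO and not in Sohlh2 KO, and Plin1 and Fabp4 did not pass in either knockout. The median log2 difference of the set was -1.6 in Sohlh1 KO and -1.57 in Sohlh2 KO, beside 0.0347 and 0.0443 over all tested genes. With genes that were not above background in a whole group placed at their bound, as explained with Adipoq below, those medians were -1.29 and -1.3. Both comparisons use the same wild-type arrays, so their likeness is not independent evidence. In whole-ovary RNA, fewer cells of a type and less RNA per cell cannot be told apart.

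**Figure D1:**
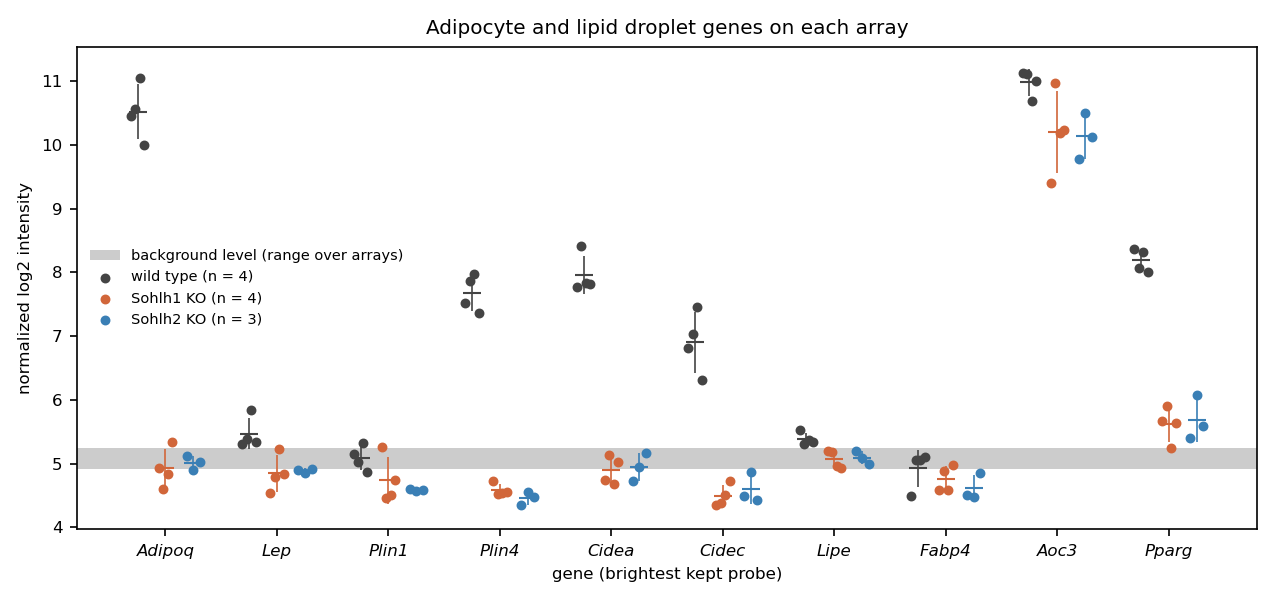
Normalized log2 intensity (y axis) of the brightest kept probe of each gene (x axis) on each array, with 1 point an array, the mean as a horizontal bar and the SD as a vertical bar, with 4 wild-type, 4 Sohlh1 KO and 3 Sohlh2 KO arrays. The grey band is the range of the background level over arrays (4.92 to 5.24). The means of Adipoq, Plin4, Cidea and Cidec fell to or below that band in both knockouts, that of Pparg stayed above it, and that of Aoc3 was far above it in all 3 groups.

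Among the secreted hormones, Adipoq, which encodes adiponectin, had the largest fall of the set. Its probe read 10.46, 10.56, 11.05 and 9.9989 in wild type 1 to 4. It read 4.92, 4.61, 4.84 and 5.33 in Sohlh1 KO 1 to 4, and 5.11, 4.90 and 5.03 in Sohlh2 KO 2 to 4. Every wild-type array was far above every knockout array, and of the 7 knockout arrays only Sohlh1 KO 4 was above its background. On the deposited intensity scale the group means were 1635 in wild type, 149 in Sohlh1 KO and 152.2 in Sohlh2 KO. In Sohlh1 KO the log2 difference of Adipoq was -5.59 with an SE of 0.205 (adjusted p = 3.1e-10), which is 40.9-fold once the 3 arrays below background are raised to their background level. In Sohlh2 KO the probe was above background on 0 of 3 arrays, so the fall is a bound: at least 41.5-fold lower (adjusted p = 1.09e-09). Bounds compare the bright group's mean with the dim group's mean after each dim array was raised to its own background level.

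Promoter windows are shown for members that fell in both knockouts, as the sequence upstream of transcripts that moved together. Windows run from 250 bases before to 50 after the annotated start (RefSeq, GRCm38.p6), and windows of 7 of the 10 members were used. None was used here for Cidea, Fabp4 or Aoc3. Motifs were searched on both strands of each window. They were the nuclear receptor half-site, spelled AGGTCA, and a direct repeat of its looser form, spelled AGGNCA, with 1 base between the repeats. The C/EBP palindrome was spelled TTGCGCAA. The TATA box was spelled TATAAA, the CCAAT box by its name, and the E-box CACGTG. Over 32851 windows of the same length, 37.4% held CCAAT, 16.3% AGGTCA, 13.6% TATAAA, 7.15% CACGTG, 0.381% the direct repeat and 0.183% the palindrome. Capitals mark matches, which did not overlap each other, and ATTGG or TTTATA is CCAAT or TATAAA on the other strand. A match is a description of the letters and not a site of binding. The Adipoq window (chr16:23146286-23146585, plus strand) held CCAAT beginning 34, 27 and 7 bases before the start. The Lep window (chr6:29059971-29060270, plus strand) held the palindrome 55 bases before the start.
Adipoq: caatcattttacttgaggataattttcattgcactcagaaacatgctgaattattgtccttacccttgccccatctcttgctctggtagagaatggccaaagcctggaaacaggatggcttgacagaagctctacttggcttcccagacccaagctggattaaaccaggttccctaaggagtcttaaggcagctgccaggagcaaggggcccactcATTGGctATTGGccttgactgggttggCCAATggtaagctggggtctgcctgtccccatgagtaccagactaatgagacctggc
Lep: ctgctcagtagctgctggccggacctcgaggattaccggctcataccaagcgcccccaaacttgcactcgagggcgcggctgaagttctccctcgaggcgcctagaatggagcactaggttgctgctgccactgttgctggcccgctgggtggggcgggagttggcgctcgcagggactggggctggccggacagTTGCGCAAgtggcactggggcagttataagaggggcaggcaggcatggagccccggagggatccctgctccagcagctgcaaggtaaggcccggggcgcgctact

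Lep, which encodes leptin, was faint even in wild type. Its probe read 5.31, 5.39, 5.84 and 5.34 in wild type 1 to 4, against 4.53, 4.79, 5.24 and 4.84 in Sohlh1 KO 1 to 4. It read 4.90, 4.85 and 4.92 in Sohlh2 KO 2 to 4. The groups did not overlap, with Sohlh1 KO 3 close under the lowest wild-type array and the only knockout array above background. Lep fell in Sohlh1 KO (adjusted p = 0.01; log2 difference -0.618 with an SE of 0.161), by 1.26-fold with arrays below background raised to that level, and was at least 1.26-fold lower in Sohlh2 KO (adjusted p = 0.026). Without background correction neither difference passed (adjusted p = 0.0504 and 0.123). The Sohlh2 KO call also ended when any 1 of wild type 3 or Sohlh2 KO 2, 3 or 4 was left out (adjusted p = 0.0659 to 0.0801).

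Of the droplet coat and droplet fusion proteins, Plin4, a perilipin of small droplets in fat cells, fell from 7.53, 7.86, 7.98 and 7.36 in wild type 1 to 4. It read 4.73, 4.53, 4.53 and 4.55 in Sohlh1 KO 1 to 4 and 4.35, 4.56 and 4.48 in Sohlh2 KO 2 to 4. None of the 7 knockout arrays was above background. Plin4 was at least 5.95-fold lower in Sohlh1 KO (adjusted p = 2.98e-09) and at least 5.81-fold lower in Sohlh2 KO (adjusted p = 5.52e-09). Plin1, the main perilipin of the large droplet of white fat cells, was near background everywhere and did not pass. Its brighter probe read 5.14, 5.02, 5.33 and 4.87 in wild type and 5.26, 4.46, 4.51 and 4.74 in Sohlh1 KO, so those groups overlapped through Sohlh1 KO 1. In Sohlh2 KO it read 4.60, 4.57 and 4.59, below all wild-type arrays. The log2 differences of Plin1 were -0.351 (95% interval -0.72 to 0.02; adjusted p = 0.137) and -0.504 (95% interval -0.9 to -0.1; adjusted p = 0.0632). Without Sohlh1 KO 1 both passed (adjusted p = 0.0078 and 0.0109), with every remaining knockout array below background. Over all 11 arrays, with those below background raised to that level, the means did not fall. They were 5.14 in wild type, 5.17 in Sohlh1 KO and 5.14 in Sohlh2 KO. The second Plin1 probe was above background on 0 of 11 arrays.

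Cidea and Cidec encode CIDE proteins, which sit where droplets touch and move lipid from the smaller to the larger. Cidea, known from brown and beige fat, read 7.77, 8.41, 7.84 and 7.82 in wild type 1 to 4. It read 4.74, 5.13, 4.68 and 5.03 in Sohlh1 KO 1 to 4 and 4.73, 4.96 and 5.16 in Sohlh2 KO 2 to 4. Only Sohlh2 KO 4 of the knockout arrays was above its background. Cidea was at least 7.21-fold lower in Sohlh1 KO (adjusted p = 1.73e-08) and also fell with Sohlh2 missing (adjusted p = 5.55e-08; log2 difference -3.01 with an SE of 0.183), by 6.94-fold with arrays below background raised to that level. Cidec, the member known from white fat, read 6.82, 7.03, 7.46 and 6.30 in wild type 1 to 4, 4.34, 4.38, 4.51 and 4.72 in Sohlh1 KO 1 to 4, and 4.50, 4.87 and 4.43 in Sohlh2 KO 2 to 4. All knockout arrays were below background, and Cidec was at least 3.47-fold lower in Sohlh1 KO (adjusted p = 1.36e-06) and at least 3.39-fold lower in Sohlh2 KO (adjusted p = 5.79e-06). The windows of Plin4 (chr17:56109733-56110032, minus strand) and Cidec (chr6:113435711-113436010, minus strand) follow. That of Plin4 held 1 CCAAT, beginning 18 bases before the start, and that of Cidec held none of the motifs searched.
Plin4: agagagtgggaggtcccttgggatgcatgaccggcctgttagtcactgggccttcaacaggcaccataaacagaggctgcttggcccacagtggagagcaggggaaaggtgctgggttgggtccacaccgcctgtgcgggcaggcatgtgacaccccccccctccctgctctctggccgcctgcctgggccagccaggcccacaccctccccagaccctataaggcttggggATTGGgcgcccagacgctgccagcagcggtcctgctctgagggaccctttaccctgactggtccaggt
Cidec: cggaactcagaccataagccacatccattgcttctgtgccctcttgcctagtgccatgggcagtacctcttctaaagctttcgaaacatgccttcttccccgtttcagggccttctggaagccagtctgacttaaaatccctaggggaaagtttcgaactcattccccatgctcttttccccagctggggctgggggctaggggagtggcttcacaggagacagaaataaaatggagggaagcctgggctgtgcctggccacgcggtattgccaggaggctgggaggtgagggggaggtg

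Lipe encodes hormone-sensitive lipase, which splits diacylglycerol during lipolysis. Its brightest probe read 5.52, 5.31, 5.36 and 5.35 in wild type 1 to 4. It read 5.20, 5.18, 4.96 and 4.94 in Sohlh1 KO 1 to 4 and 5.20, 5.08 and 4.99 in Sohlh2 KO 2 to 4. Both knockouts lay below wild type without overlap, and all 3 groups were close to background. Lipe fell in Sohlh1 KO (adjusted p = 0.0485; log2 difference -0.317 with an SE of 0.114), by 1.17-fold with the 2 arrays below background raised to that level, and in Sohlh2 KO its difference of -0.294 did not pass (adjusted p = 0.102). The Sohlh1 KO call was lost when background was not corrected (adjusted p = 0.259), and also with a chip block (log2 difference -0.196, adjusted p = 0.287). It also ended when any 1 of the 4 wild-type arrays, Sohlh1 KO 3 or 4, or any Sohlh2 KO array was left out (adjusted p = 0.0586 to 0.126). A second kept Lipe probe differed by -0.292 and -0.54 and did not pass (adjusted p = 0.257 and 0.0664 over all kept probes), and the third was above background on 0 of 11 arrays.

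Fabp4, the fatty acid binding protein of fat cells and macrophages, was at background in the newborn ovary by its only probe. It read 4.49, 5.05, 5.06 and 5.11 in wild type 1 to 4, with all but wild type 1 slightly above their background. It read 4.59, 4.89, 4.59 and 4.97 in Sohlh1 KO 1 to 4 and 4.51, 4.48 and 4.86 in Sohlh2 KO 2 to 4, with 0 of 7 above background. The groups overlapped, and the differences of -0.166 (95% interval -0.52 to 0.19; adjusted p = 0.479) and -0.311 (95% interval -0.69 to 0.07; adjusted p = 0.229) did not pass. At this signal over background a fall of Fabp4 was not detectable.

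Aoc3, an amine oxidase on the surface of fat cells, smooth muscle and endothelium, changed little beside the 5 genes with a fall of at least 2-fold. It read 11.13, 11.12, 10.68 and 11.001 in wild type 1 to 4. It read 9.41, 10.97, 10.18 and 10.23 in Sohlh1 KO 1 to 4 and 9.78, 10.50 and 10.12 in Sohlh2 KO 2 to 4. Sohlh1 KO 2 lay within the wild-type range, the other knockout arrays lay below it, and all 11 arrays were above background. Aoc3 fell 1.72-fold in Sohlh1 KO (log2 difference -0.784, adjusted p = 0.0395) and 1.80-fold in Sohlh2 KO (-0.846, adjusted p = 0.0481). A chip block ended both calls (-0.792 in Sohlh1 KO, adjusted p = 0.111, and -0.862 in Sohlh2 KO, adjusted p = 0.308). The Sohlh1 KO call also ended when any 1 of wild type 1, 2 or 4, Sohlh1 KO 1, 3 or 4 or Sohlh2 KO 4 was left out (adjusted p = 0.0517 to 0.0953), with the difference at -0.521 without Sohlh1 KO 1. The Sohlh2 KO call ended without any 1 of the wild-type arrays, Sohlh1 KO 3 or 4 or Sohlh2 KO 2 or 4 (adjusted p = 0.0507 to 0.185). The second Aoc3 probe was above background on 0 of 11 arrays.

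Pparg, the nuclear receptor at the head of the fat cell programme, is also expressed by granulosa cells. Its brightest probe read 8.36, 8.06, 8.32 and 8.01 in wild type 1 to 4. It read 5.67, 5.90, 5.24 and 5.64 in Sohlh1 KO 1 to 4 and 5.40, 6.07 and 5.59 in Sohlh2 KO 2 to 4. All knockout arrays were far below wild type and still above background, which of the 5 genes with a fall of at least 2-fold held for Pparg alone. Pparg fell 5.96-fold in Sohlh1 KO (adjusted p = 1.31e-07; log2 difference -2.57 with an SE of 0.175) and 5.66-fold with Sohlh2 missing (adjusted p = 4.92e-07; -2.50 with an SE of 0.189). A fainter Pparg probe fell from 6.10, 5.72, 5.81 and 5.86 in wild type 1 to 4, by -1.05 in Sohlh1 KO and -1.09 in Sohlh2 KO on the log2 scale (adjusted p = 0.000752 and 0.00135 over all kept probes). The third was above background on 1 wild-type array and was not kept. Of 3 Pparg windows, 2 are shown, those with the most matches. The first of these (chr6:115362099-115362398, plus strand) held AGGTCA beginning 9, TATAAA 29 and CCAAT 83 bases before the start, and the other (chr6:115421816-115422115, plus strand) held CCAAT at 144 and 22.
Pparg, first window: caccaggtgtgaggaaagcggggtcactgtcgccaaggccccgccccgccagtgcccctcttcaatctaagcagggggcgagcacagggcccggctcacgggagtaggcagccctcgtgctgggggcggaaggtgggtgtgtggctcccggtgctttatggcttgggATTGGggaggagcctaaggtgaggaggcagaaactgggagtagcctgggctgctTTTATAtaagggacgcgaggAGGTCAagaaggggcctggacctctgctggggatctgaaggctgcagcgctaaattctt
Pparg, other window: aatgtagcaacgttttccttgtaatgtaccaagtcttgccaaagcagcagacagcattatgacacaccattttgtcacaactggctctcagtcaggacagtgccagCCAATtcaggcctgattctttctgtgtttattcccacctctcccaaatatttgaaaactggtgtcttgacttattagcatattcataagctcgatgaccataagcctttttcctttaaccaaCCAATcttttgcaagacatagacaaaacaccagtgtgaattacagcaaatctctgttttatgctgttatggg

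**Figure D2:**
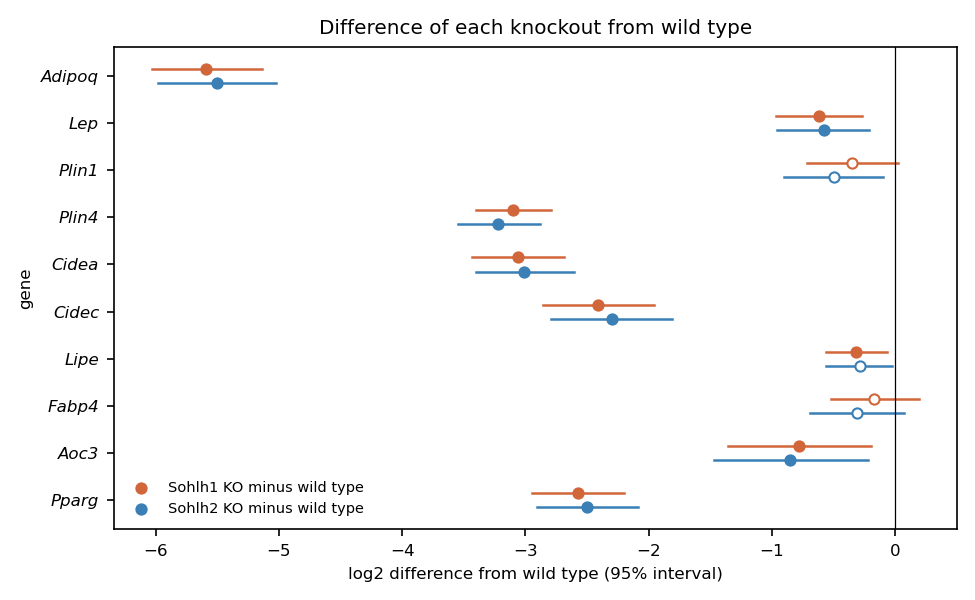
Log2 difference from wild type (x axis) of each gene (y axis) in Sohlh1 KO and Sohlh2 KO, with 95% intervals from the limma fit; filled points passed at an adjusted p under 0.05 and open points did not. Adipoq lies near -5.5, Plin4, Cidea, Pparg and Cidec lie between -3.22 and -2.3, and the other 5 genes lie above -1.

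The falls of Adipoq, Plin4, Cidea, Pparg and Cidec were of like size on a single chip. Where Sohlh1 KO 1 and 2 were set against wild type alone, the log2 differences were -5.75, -3.05, -3.02, -2.40 and -2.54 (adjusted p = 1.57e-06, 1.21e-05, 2.05e-05, 1.85e-05 and 0.000244). Lep passed there as well (-0.806, adjusted p = 0.0179), and Lipe, Aoc3, Plin1 and Fabp4 did not. With chip as a block, the Sohlh2 KO differences of Adipoq, Plin4, Cidea, Pparg and Cidec were -5.82, -3.13, -2.93, -2.16 and -2.55 (adjusted p = 8.76e-07, 7.54e-06, 6.01e-05, 0.000451 and 0.000708). Without background correction these differences were smaller and still passed, -3.42 for Adipoq and between -1.33 and -0.91 for the other 4 in Sohlh1 KO, and -3.38 and between -1.34 and -0.843 in Sohlh2 KO.

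No gene of the set differed between the knockouts by the test. In Sohlh1 KO against Sohlh2 KO 0 of 10 passed, 0 of 10 had an unadjusted p under 0.05, and 0.0375% of all tested genes (5 of 13350) were called, 0.00749% lower and 0.03% higher. The knockouts overlapped for all 10 genes, where Sohlh1 KO lay wholly below Sohlh2 KO for 4.6% of all tested genes and wholly above for 3.01%. The log2 differences lay between -0.11 and 0.15, and their 95% intervals between -0.6 and 0.69, the widest being that of Aoc3 (-0.57 to 0.69). For Pparg, whose level was above background in both knockouts, the interval was -0.48 to 0.34. For Adipoq, Plin4, Cidea and Cidec both groups were at or under background on most arrays, so a difference between the knockouts was not detectable there.

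Within wild type the genes of the set varied from array to array. Wild type 3 was the highest array for 5 of the 10 genes (Adipoq, Lep, Plin1, Plin4 and Cidec) and wild type 4 was the lowest for 5 (Adipoq, Plin1, Plin4, Cidec and Pparg). No share of all tested genes is set beside these counts, so they show no variation particular to the set. Lep and Plin1 were near background. From the lowest to the highest wild-type array Adipoq spanned 9.9989 to 11.05 and Cidec 6.30 to 7.46. The 5 tested genes whose profile over the 11 arrays, taken from the wild-type mean, was closest to that of Adipoq were Car3 (root mean square difference 0.21 on the log2 scale), Fbxw27 (0.30), Npm2 (0.31), Zp1 (0.314) and Sec14l3 (0.321). The size of the fall in the knockouts largely sets this distance, so genes with a like fall come out close whatever their cell type. Car3, a carbonic anhydrase abundant in fat cells, read 10.11, 10.11, 10.63 and 9.57 in wild type 1 to 4. Its highest array was wild type 3 and its lowest wild type 4, as for Zp1 and not for the other 3 genes. Npm2, the oocyte nucleoplasmin, and Zp1, of the zona pellucida, are oocyte genes. With Sohlh1 missing Car3 was at least 31.9-fold lower (adjusted p = 1.67e-10), and in Sohlh2 KO at least 31.2-fold lower (adjusted p = 4.72e-10).

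Beyond these genes, other markers of mature fat cells mostly fell. Of 11 tested of 16 listed, 7 fell and 1 rose in Sohlh1 KO and 6 fell and 0 rose in Sohlh2 KO, with median log2 differences of -0.997 and -1.14 (-0.971 and -0.934 with genes at their bound). Beside this list and those below, 16.4% and 13% of all tested genes were called lower and 16.3% and 12.5% higher. Besides Car3, Adig, which takes part in fat cell differentiation, read 6.47, 6.93, 7.35 and 6.84 in wild type and was at least 3.46-fold lower in Sohlh1 KO and 3.38-fold in Sohlh2 KO (adjusted p = 2.78e-07 and 4.92e-07). Mrap, an accessory protein of the corticotropin receptor in fat cells and the adrenal, was at least 2.85-fold lower in Sohlh1 KO and fell 2.74-fold in Sohlh2 KO (adjusted p = 1.11e-06 and 2.98e-05). Car3, Adig and Mrap were above background on fewer than 3 knockout arrays. They were kept only through wild type, so the filter favours a fall for them as well. Of the 11 tested genes, 4 were above background on no Sohlh1 KO array and 3 on no Sohlh2 KO array. Apoc1, named after its value was seen, was the gene of this list that rose in Sohlh1 KO (log2 difference 0.563, adjusted p = 0.0252). The fat cell genes Retn, Lgals12 and Aqp7 were not kept, and Adrb3 and Cfd were not analysed here.

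Among other lipid droplet and lipolysis genes, 6 of 12 tested fell and 1 rose in each knockout, with medians of -0.55 and -0.415. Pnpla3, a lipid droplet protein of the patatin-like family, read 9.63, 9.70, 10.01 and 9.64 in wild type, 6.27, 6.59, 6.83 and 5.06 in Sohlh1 KO and 6.39, 6.76 and 6.56 in Sohlh2 KO. It fell 11.8-fold and 9.01-fold (adjusted p = 9.63e-07 and 7.84e-06). Mgll, the lipase of monoglycerides, fell 3.01-fold and 2.59-fold (adjusted p = 2.24e-07 and 2.38e-06), although 1 of its 2 fainter probes did not pass in Sohlh2 KO (adjusted p = 0.109). Plin5, the perilipin of oxidative tissues, fell 2.99-fold and 2.44-fold (adjusted p = 0.000338 and 0.00359). Plin2, the perilipin found on droplets of nearly all cells, rose 1.45-fold and 1.73-fold (adjusted p = 0.0083 and 0.0014), with every knockout array (lowest 8.44) above every wild-type array (highest 8.29). The Sohlh1 KO call of Plin2 ended when wild type 2 and 3 were both left out (log2 difference 0.448, adjusted p = 0.105). With chip as a block 2 genes of the list rose in Sohlh1 KO, and 5 fell in Sohlh2 KO. Within the perilipin family Plin4 and Plin5 fell, Plin2 rose and Plin1 did not pass.

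**Figure D3:**
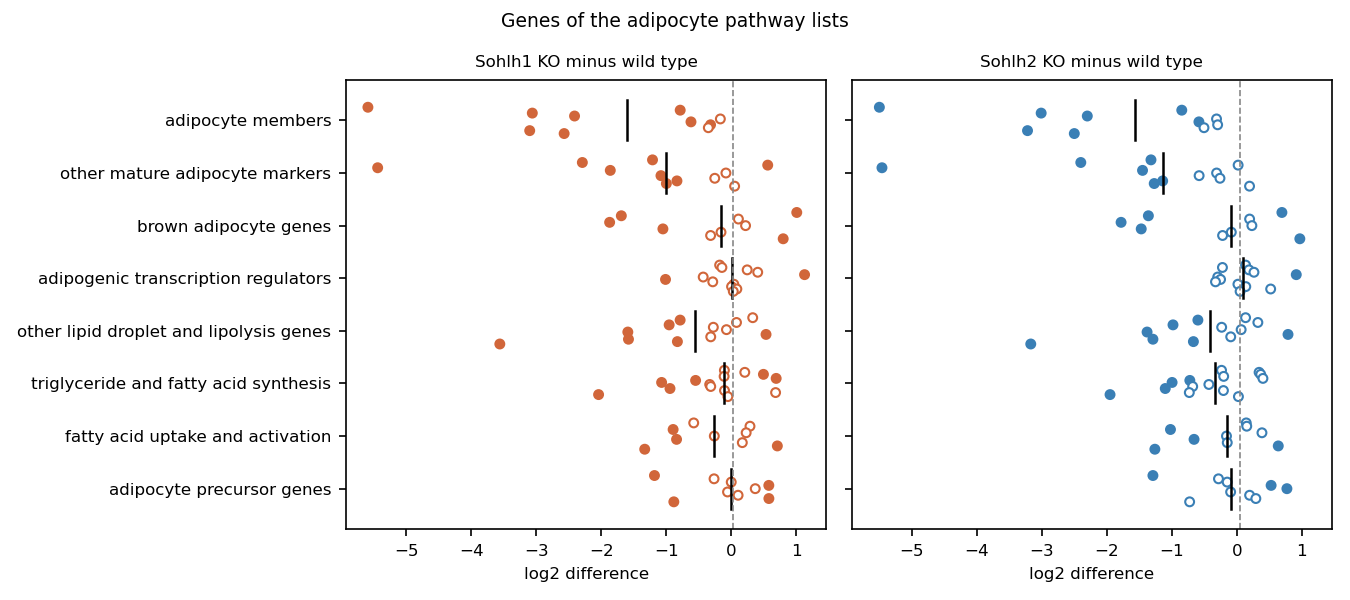
Log2 difference from wild type (x axis) of every tested gene of 8 lists of fat cell and lipid genes (y axis), in Sohlh1 KO (left) and Sohlh2 KO (right); filled points passed at an adjusted p under 0.05, open points did not, black bars are list medians and the dashed line is the median of all tested genes. The medians of the 10 genes described here (-1.6 and -1.57) and of the other mature adipocyte markers (-0.997 and -1.14) lie further from the dashed line than those of the other 6 lists drawn, and the medians of transcription regulators and precursor genes lie between -0.094 and 0.0941. Lists of other cell types are not drawn, and the median of steroidogenic and theca markers was lower still (-2.88 and -2.81).

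Other transcription regulators of fat cell formation did not follow Pparg. Of 12 tested, 1 fell and 1 rose in Sohlh1 KO, and 0 fell and 1 rose in Sohlh2 KO, with medians of 0.0198 and 0.0941. Ebf2, a regulator of brown fat precursors, rose 2.18-fold and 1.89-fold (adjusted p = 0.00144 and 0.0117). Klf5, a Krüppel-like factor, fell 2.02-fold in Sohlh1 KO (adjusted p = 0.00269), and in Sohlh2 KO its log2 difference of -0.249 did not pass (adjusted p = 0.467). With chip as a block Klf5 fell in Sohlh2 KO too (-1.11, adjusted p = 0.00727), and 1 gene fell and 2 rose in each knockout. The Klf5 difference between the knockouts did not pass (adjusted p = 0.289), and the Sohlh2 KO call of Ebf2 ended without Sohlh2 KO 3 (adjusted p = 0.0579).

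Of 9 tested genes of fatty acid uptake and activation, 3 fell and 1 rose in each knockout (medians -0.259 and -0.146). Vldlr, the very low density lipoprotein receptor, fell 2.51-fold and 2.39-fold (adjusted p = 6.3e-07 and 2.77e-06), and 1 of its 4 kept probes did not pass in either knockout (adjusted p = 0.213 and 0.43). Lpl, the lipoprotein lipase that frees fatty acids for uptake and a known PPARG target in fat, fell 1.79-fold and 1.58-fold (adjusted p = 0.000649 and 0.00787), from 12.97, 12.90, 13.04 and 12.52 in wild type. The fatty acid transporter Slc27a4 rose 1.64-fold and 1.56-fold (adjusted p = 0.00249 and 0.0103), and Cd36 was above background on 0 of 11 arrays. The Slc27a4 calls ended without wild type 2 and 3 (adjusted p = 0.058 and 0.132), and that in Sohlh2 KO also without Sohlh2 KO 3 (adjusted p = 0.0514). A chip block left 1 lower and 0 higher in Sohlh2 KO, with Lpl at an adjusted p of 0.0903, and Lpl was lost there without wild type 2 and 3 as well (adjusted p = 0.0976).

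Of 14 tested genes of triglyceride and fatty acid synthesis, 4 fell and 2 rose in Sohlh1 KO and 4 fell and 0 rose in Sohlh2 KO (medians -0.106 and -0.332). Scd1, the stearoyl-CoA desaturase, fell 4.11-fold and 3.86-fold (adjusted p = 3.55e-07 and 1.53e-06), and Elovl6, a fatty acid elongase, fell 2.09-fold and 1.99-fold (adjusted p = 4.58e-05 and 0.00021). Gpd1, which makes glycerol phosphate, fell 1.92-fold and 2.15-fold (adjusted p = 0.0019 and 0.00138). Chip as a block left 3 lower and 0 higher in Sohlh1 KO and 2 lower and 0 higher in Sohlh2 KO, where Gpd1 had an adjusted p of 0.0856.

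Markers of other cell types moved with the knockouts. Summed over the set, the normalized intensity was 3946 to 4909 in wild type, against 956.6 to 2287 without Sohlh1 and 1141 to 1742 without Sohlh2, and the genes above background on no array of a group numbered 0, 4 and 6. In the knockouts most of that sum came from Aoc3 (9.41 to 10.97 and 9.78 to 10.5 on the log2 scale), which smooth muscle and endothelium also carry. Smooth muscle and pericyte markers summed to 37130 to 38950, 14680 to 20890 and 23120 to 26640 in the same order, with 5 of 8 and 4 of 8 lower and Actg2, a smooth muscle actin, down 11.2-fold and 7.79-fold. Steroidogenic and theca markers summed to 1914 to 3157, 211.7 to 283.2 and 189.5 to 244, with 4 of 5 lower in each knockout. The median log2 differences of this list were -2.88 and -2.81, lower than those of the set (-1.6 and -1.57). Medians of the smooth muscle and pericyte list were -0.998 and -0.725. Ovary and germ cell markers summed to 18850 to 22410, 6160 to 9861 and 5988 to 6423, with Gdf9 and Zp3 lower in each knockout and 2 of 8 and 1 of 8 higher. Dazl, an RNA-binding protein of germ cells, rose 4.01-fold and 2.85-fold (adjusted p = 4.95e-05 and 0.00126), and the list's median log2 differences were 0.343 and 0.195. Their part in the falls of the fat cell and droplet genes was not tested.

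Endothelial markers had sums that overlapped between groups, at 7684 to 9583, 7802 to 9312 and 7482 to 9197, with 0 of 8 lower in either knockout and 3 of 8 and 1 of 8 higher. Pecam1, an adhesion protein of endothelium, rose 1.96-fold and 1.75-fold at its brightest probe (adjusted p = 1.57e-05 and 0.000203). Its fainter kept probes averaged 7.64 and 4.91 over the arrays. Their log2 differences were 0.461 and 0.723 in Sohlh1 KO, where only the latter passed (adjusted p = 0.067 and 0.043 over all kept probes). In Sohlh2 KO neither of these probes passed (0.0278 and 0.423, adjusted p = 0.937 and 0.288). Macrophage markers summed to 1902 to 3225, 2233 to 4060 and 2134 to 3149, with 0 of 7 lower and 1 of 7 and 2 of 7 higher. Mrc1, the mannose receptor, rose 1.76-fold and 1.77-fold (adjusted p = 0.00268 and 0.00547), the latter call ending under a chip block (adjusted p = 0.0583). Red blood cell markers were higher, 6391 to 10940 in wild type against 26990 to 41090 and 24010 to 33530, with 3 of 3 and 2 of 3 called. Skeletal muscle markers were also higher in sum, 595.1 to 796 against 899.9 to 1592 and 895.7 to 4462. Sohlh2 KO 4 was the highest array. By the test 2 of 8 and 1 of 8 of these genes were called higher, and 0 in some alternatives. Of all tested genes 16.3% and 12.5% were called higher, so the skeletal muscle counts do not stand out from that share. The part of these cell types in the result was not tested either.

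**Figure D4:**
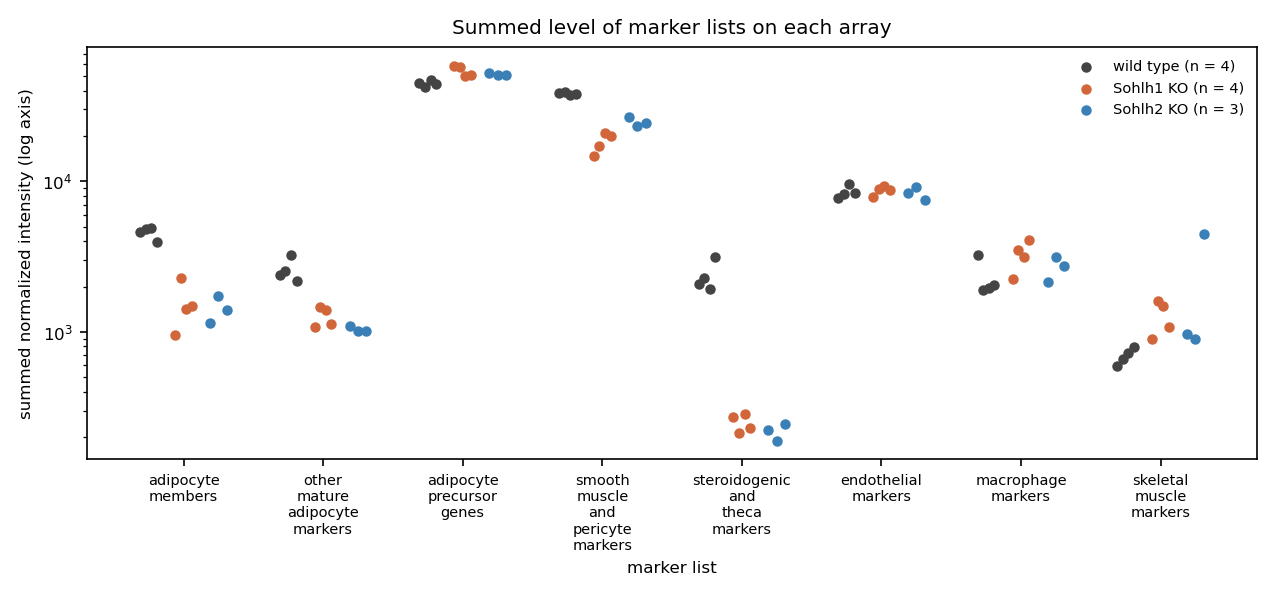
Summed normalized intensity (y axis, log scale) of each marker list (x axis) on each array, with 1 point an array, with 4 wild-type, 4 Sohlh1 KO and 3 Sohlh2 KO arrays. The 10 genes described here, the other mature adipocyte markers (2177 to 3238 for wild type, 1071 to 1458 for Sohlh1 KO, 1010 to 1088 for Sohlh2 KO), and the smooth muscle and steroidogenic lists are lower on every knockout array, while sums of endothelial markers overlap between groups. Most of the knockout sum of the 10 genes is Aoc3.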

How the data were processed

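Newborn ovary RNA was measured on 11 arrays. Per the submitters' processing notes BeadStudio 3.2 was used; further steps are not given in the sources used here. The deposited table held linear intensity values from 98.39 to 33822.48, without detection p-values or control probes. They were not background-subtracted and, although described as non-normalized, differed between arrays by at most 11.2 at the same rank. Values of the deposited series matrix matched the log2 of that intensity to within 0.005. Symbols came from the platform annotation: of 45281 probes, 34885 had 1 symbol, 18 several and 10378 none, and the last 2 kinds were left out.

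Background was corrected with limma's normexp model (offset 16), with 1276 olfactory receptor probes as negative controls, then quantile normalized and taken to log2 (limma 3.58.1, statmod 1.5.0, R 4.3.3). Probes brighter than 95% of these control probes (149.3 to 158.9 intensity units) on at least 3 arrays were kept (24451), and the brightest stood for each gene. A model of 3 group means was fitted with limma to all tested genes and adjusted by Benjamini-Hochberg. It was tested on simulated data. Signal over background and the number of arrays limit the precision.

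The members and lists were chosen with earlier results of these data known. Named beside the members are Sohlh1 and Sohlh2, in each comparison up to 3 genes a list, by smallest adjusted p, and the 5 closest profiles to Adipoq. Alternatives were no background correction, an offset of 50, the series matrix values, cyclic loess, no filter or the 99th percentile, every kept probe, weighting of arrays, a block for replicate number or for chip, 1 chip alone, a fit to only the groups compared, leaving out single arrays or wild type 2 with 3, and a 2-fold minimum.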

Additional observations from a re-analysis of the deposited data

Results flagged for a closer look

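In 4 of the 20 gene and group combinations with 4 arrays, 1 array stood apart from the other 3, by a test that flags about 1 in 20 groups by chance. For Lep, wild type 3 was at 5.84, above the next wild-type array at 5.39. For Cidea, wild type 2 was at 8.41, above the next at 7.84. For Fabp4, wild type 1 was at 4.49, below the next at 5.05 and below its background. For Plin4, Sohlh1 KO 1 was at 4.73, above the next at 4.55, and all 4 arrays were below background. No gene of the set was called different between the knockouts.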

How the results depend on the processing

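Adipoq, Plin4, Cidea, Cidec and Pparg stayed lower and past the threshold in 25 of 25 alternatives for Sohlh1 KO and 24 of 24 for Sohlh2 KO, with the smallest differences when background was not corrected, and no member changed sign under any alternative. With single arrays left out, 6 to 8 members were called in Sohlh1 KO, 5 to 8 in Sohlh2 KO and 0 to 0 between the knockouts. In Sohlh1 KO 5 members were called without wild type 2 and 3, and 5 with a 2-fold minimum. Over all genes, single arrays left out gave 3429 to 4732 calls in Sohlh1 KO, 2437 to 4129 in Sohlh2 KO and 1 to 69 between the knockouts, the last without Sohlh1 KO 1. Without wild type 2 and 3 there were 2540, 1868 and 2 calls, and with a 2-fold minimum 1405, 1213 and 3. In Sohlh2 KO, array weights gave 5225 and chip as a block 1712. Between the knockouts there was 1 call without background correction, 1 with the series matrix values and 1 with only the groups compared, against 8 with cyclic loess, 8 with every kept probe, 45 with array weights, 26 with chip as a block and 21 within 1 chip. Deviations of same-numbered arrays from their group means had correlations of -0.201 to 0.129. Arrays of unlike number were not compared, so whether the numbers pair the arrays was not settled. Sohlh2 KO numbers were taken from the titles, and those in the descriptions differ. With a replicate block Aoc3 was lost in both knockouts (adjusted p = 0.058 and 0.0537). Differences that reversed had not passed: Zfp423 in Sohlh1 KO (-0.0122 with cyclic loess, -0.0274 with array weights, -0.03 without wild type 2 and 3, -0.0648 and -0.0299 without Sohlh1 KO 2 or 1, and up to 0.359 with other single arrays left out), Cdh5 in Sohlh2 KO (-0.0108 with cyclic loess, -0.0685 without Sohlh2 KO 3, and up to 0.222 with others left out), and under a chip block Slc4a1 (-0.501) and the Sohlh2 gene (0.274) in Sohlh2 KO. The cause of these shifts was not tested. Every alternative began from values already quantile normalized, so a shift shared by most genes could not be seen.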

Other observations

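Genes of brown fat did not move one way. Of 9 tested of 12 listed, 3 fell and 2 rose in each knockout, with median log2 differences of -0.156 and -0.0837. Cox8b, a cytochrome oxidase subunit of brown fat and muscle, read 6.76, 7.04, 7.11 and 6.70 in wild type and fell 3.24-fold and 2.57-fold (adjusted p = 1.54e-06 and 3.14e-05). Dio2, the deiodinase that makes active thyroid hormone, was at least 2.51-fold and 2.45-fold lower (adjusted p = 1.67e-06 and 7.18e-06). Dio2 was above background on no knockout array and was kept only through wild type, so the filter favours a fall here too. Lhx8, a homeobox gene that is also a transcription factor of oocytes, fell 2.07-fold and 2.77-fold (adjusted p = 0.00098 and 0.000157). Cox7a1, another cytochrome oxidase subunit, rose 2.01-fold and 1.62-fold (adjusted p = 0.000895 and 0.0201). Its Sohlh2 KO call ended without any 1 of wild type 1 or Sohlh2 KO 2 or 4 (adjusted p = 0.0573 to 0.0764). Ucp1, the uncoupling protein that defines brown fat, is named after its value was seen. It was above background on 1 of 4 wild-type arrays and on all knockout arrays, and rose by 0.801 and 0.971 on the log2 scale (adjusted p = 0.00645 and 0.00395). With chip as a block the list's medians were -0.346 and -0.444, and 0 genes rose in Sohlh2 KO.

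Genes of fat cell precursors moved both ways. Of 9 tested, 2 fell and 2 rose in Sohlh1 KO, and 1 fell and 2 rose in Sohlh2 KO, with medians of 0.00146 and -0.094 (0.106 and 0.0624 with chip as a block). Dlk1, a surface protein of precursor cells that many fetal tissues express, read 14.18, 14.05, 14.27 and 14.16 in wild type and rose 1.49-fold and 1.44-fold (adjusted p = 0.0012 and 0.00502), with larger differences at its other probe (1.71 and 1.56 on the log2 scale). Cd24a, a surface marker of many immature cells, fell 2.27-fold and 2.45-fold (adjusted p = 0.000575 and 0.000687). Pdgfrb rose 1.5-fold in Sohlh1 KO (adjusted p = 0.0149) and differed by 0.294 in Sohlh2 KO (adjusted p = 0.249), and Dpp4 rose 1.71-fold in Sohlh2 KO (adjusted p = 0.00508) and differed by 0.371 in Sohlh1 KO (adjusted p = 0.094; 0.548 and adjusted p = 0.00154 without Sohlh1 KO 1). In Sohlh2 KO with chip as a block, 0 genes of this list fell and 1 rose, with Cd24a and Dpp4 at adjusted p of 0.133 and 0.326.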
